A study of Mus musculus with 48 samples.

Results

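The 9 transcripts described here are noncoding RNAs of mouse whose introns carry small nucleolar RNAs (snoRNAs): Gas5, Zfas1, 2410006H16Rik, Snhg1, Snhg3, Snhg5, Snhg6, Snhg8 and Snhg12. They are 9 of the 20171 genes in the deposited count table, found there by symbol, and RefSeq annotates all 9 as long noncoding RNAs. The list was chosen by name with earlier results of these data in view, and the measured values behind the choice are not recorded. The lysate comparison of cells labelled Upf1 knockout with HA-Tnrc6a cells is the one they most plausibly came from. That comparison, and others that use the same Upf1 knockout lysates, are therefore given as descriptions with no p-value. HA-Tnrc6a inputs are the other arm of that comparison, so p-values in other comparisons that use them are not independent of how the hosts may have been chosen. RNA was sequenced from lysates of embryonic stem cells (inputs) and from what HA antibody beads recovered from them (immunoprecipitates, IPs), with 6 libraries in each of 8 groups. All lines derived from 129S6/SvEvTac embryonic stem cells with the yGlob [GFP_5xT71BS] background and a stable FLAG-Cas9::T2A::Blasticidin transfection. The untagged control had no further change. The HA-Tnrc6a line carried HA-AVI-Tnrc6a, and the other 2 genotypes were HA-AVI-Tnrc6a with Ago2-/- and HA-AVI-Tnrc6a with Upf1-/-. All were grown on gelatin in serum medium with LIF, in triplicate dishes per genotype and experiment. How many clones stand for each genotype is not given in the sources used here. The labels name experiments 3 and 4. Columns 1 to 3 and 4 to 6 of each group differed in depth and are called the first and the second set. The column names do not say which experiment each holds, so the sets are an inference from numbering and depth.

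Most snoRNAs of vertebrates are cut from introns of longer transcripts, and they then guide chemical modification or processing of ribosomal RNA in the nucleolus. In the hosts described here the spliced exons encode no conserved protein. Such spliced RNAs are exported and translated briefly, and they are known substrates of nonsense-mediated decay, the pathway in which the helicase Upf1 directs destruction of transcripts whose reading frame ends early. Many hosts also begin with a run of pyrimidines at the first base, the 5′ terminal oligopyrimidine tract found in messages of ribosomal proteins. Tnrc6a is the scaffold protein that joins Argonaute proteins, Ago2 among them, to the enzymes that silence microRNA targets. Counts of a host row can include reads from the snoRNAs in its introns, because the libraries were made from total RNA.

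Sequence around the annotated start was read for 8 hosts from RefSeq's promoter table (GRCm38.p6), 15 bases before the start and 15 from the start on. The 30-base windows of 6 hosts are shown because they hold the feature that the hosts are known for or lack it. Capitals mark an unbroken run of at least 5 C or T bases, on the strand of the gene, that includes the first base of the transcript.
Gas5: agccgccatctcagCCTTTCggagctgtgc
2410006H16Rik: tcacgcgccgTCTTTCTCTgcggccatcat
Snhg8: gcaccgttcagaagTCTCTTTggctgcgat
Snhg12: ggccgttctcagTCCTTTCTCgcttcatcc
Zfas1: ttgactgcgccccgggcggccgcaggtctc
Snhg3: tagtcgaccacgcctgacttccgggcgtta
The Gas5 window is the second of its 2 annotated starts, at chr1:161035151-161035180 on the plus strand, and the first start had no run. The 2410006H16Rik window lies at chr11:62602862-62602891 on the plus strand, that of Snhg8 at chr3:123508322-123508351 on the minus strand and that of Snhg12 at chr4:132308663-132308692 on the plus strand. Zfas1 at chr2:167062919-167062948 on the plus strand and Snhg3 at chr4:132353672-132353701 on the minus strand had no such run at the annotated base, nor had Snhg1 and Snhg5. In all, 4 of the 8 hosts had a run at an annotated start, beside 11.8% of the 27025 genes in the table with a run at any start. Per start it was 4 of 9 windows, beside 3330 of all 32851 promoters (10.1%). The absence of a run says only that these letters are not at the annotated base. Snhg6 was not in the table.

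Library totals ranged from 15383953 to 19595405 counts in inputs of the first set and from 26458831 to 37179105 in the second. IP totals ranged from 11471544 to 18344233 and from 25724085 to 73845953. All 8 stem cell markers fixed for the check were present in every input, Pou5f1 between 1131 and 1888 CPM (counts normalised by TMM-adjusted library size). Markers of primitive endoderm summed to between 16.04 and 23.91 CPM in HA-Tnrc6a inputs, to between 8.46 and 47.9 in inputs labelled Upf1 knockout and to between 5.18 and 6.34 in Ago2 knockout inputs. Mesoderm markers (3 of 3 in the table) summed to between 8.41 and 16.4 CPM in inputs labelled Upf1 knockout, above the 6.29 to 7.75 of HA-Tnrc6a inputs, and to between 4.92 and 7.06 in Ago2 knockout inputs. Neural (3 of 3) and fibroblast (3 of 4) markers overlapped between HA-Tnrc6a inputs and those labelled Upf1 knockout. The part of these markers in the results was not tested. The mRNA of Ago2 was lower in Ago2 knockout inputs, at 94.6 ± 2.20 CPM against 207 ± 2.62 (SD, n = 3) in the first set. The mRNA of Upf1 was not lower in libraries labelled Upf1 knockout, at 123 ± 0.874 CPM against 77.6 ± 4.95, and at 139 ± 3.47 against 98.5 ± 1.58 in the second set. The alleles are not described in the sources used here, so an RNA level is no check of the protein, and these cells are called labelled Upf1 knockout throughout. In tagged IPs the Tnrc6a row itself took between 10058 and 50535 CPM on average, against 71.2 and 99.8 in untagged IPs.

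The hosts lie at these places in GRCm38, with spans from RefSeq: Gas5 (ENSMUSG00000053332, chr1:161034601-161038539), Zfas1 (ENSMUSG00000074578, chr2:167062934-167065862), 2410006H16Rik (ENSMUSG00000086841, chr11:62602877-62604806), Snhg1 (ENSMUSG00000108414, chr19:8723487-8726326), Snhg3 (ENSMUSG00000085241, chr4:132351933-132353686), Snhg5 (ENSMUSG00000097195, chr9:88521052-88522897), Snhg6 (ENSMUSG00000098234, chr1:9942025-9944118), Snhg8 (ENSMUSG00000104960, chr3:123507552-123508336) and Snhg12 (ENSMUSG00000086290, chr4:132308678-132311024). In HA-Tnrc6a lysates Gas5 and 2410006H16Rik had the highest values per kilobase in both sets. By CPM alone 2410006H16Rik was the lowest host in the first set, at 33.6 ± 0.545, and its deposited length is 462 bases. Levels are compared between genes per kilobase of the deposited gene length, which exceeded the RefSeq span for Snhg1, Snhg5, Snhg8 and Snhg12 and was shorter for the others. Gas5 was the highest, at 111 ± 2.42 CPM per kilobase (SD, n = 3) in the first set and 68.6 ± 1.44 in the second. The next was 2410006H16Rik, at 72.7 ± 1.18 and 52.5 ± 1.89 CPM per kilobase. Snhg8, Snhg3 and Snhg6 followed in the first set at 54.5 ± 2.70, 50.8 ± 2.09 and 49.3 ± 0.739, and neighbours in that order lay within 2 SD of each other. Zfas1 and Snhg1 came next at 39.5 ± 2.35 and 35.4 ± 1.31. Snhg12 at 25.3 ± 1.62 and Snhg5 at 21.0 ± 0.870 CPM per kilobase were the lowest. In the second set Snhg8 stood lower, at 27.4 ± 2.52, below Snhg1 at 31.2 ± 0.472. The deposited length was 197% of the RefSeq span for Snhg5 and 23.9% for 2410006H16Rik, with the others between, so this order depends on the gene models.

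In lysates labelled Upf1 knockout 8 of the 9 hosts were higher than in HA-Tnrc6a lysates, by between 1.73-fold and 5.48-fold, and Snhg3 was near its control level. Among all genes, 29.5% of the 19444 genes tested were called higher in this comparison and 29.0% lower by edgeR's quasi-likelihood test at a Benjamini-Hochberg adjusted p under 0.05. By that rule 8 of the 9 hosts count as higher and Snhg3 as neither, which may only repeat how the list was chosen, and nothing is read from it. All 9 hosts passed the filter on low counts here and in every other comparison. The share of all genes whose libraries separate without overlap was not counted, in this comparison or in those below. The median log2 fold change was 1.42 over the hosts and -0.018 over all genes tested. In bulk lysates fewer cells that contain a transcript and less of it per cell cannot be told apart.

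2410006H16Rik, the host of Snord49a, Snord49b and Snord65, was at 34.1, 33.0 and 33.8 CPM in the 3 HA-Tnrc6a inputs of the first set and at 168, 160.1 and 140.1 in those labelled Upf1 knockout. In the second set the values were 24.3, 23.3 and 25.0 against 154, 158 and 157. The groups did not overlap in either set, and the log2 fold change was 2.45 ± 0.035 (SE). Zfas1, a transcript that starts head to head with the zinc finger gene Znfx1, was at 79.9, 73.7 and 71.3 CPM against 385, 397 and 354 in the first set. Its second set gave 49.8, 45.7 and 49.6 against 231, 234 and 237. The groups were again apart, with a log2 fold change of 2.31 ± 0.03. Snhg5, the host of the U50 snoRNAs, was at 77.3, 78.9 and 72.8 CPM in HA-Tnrc6a inputs and at 289, 295 and 286 in those labelled Upf1 knockout in the first set. The second set gave 82.0, 80.0 and 84.4 against 283, 300.1 and 294. It was the one host whose control level was not lower in the second set than in the first, and its log2 fold change was 1.88 ± 0.026.

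Snhg6, the host of Snord87, had a mean of 56.5 ± 0.847 CPM (SD, n = 3) in HA-Tnrc6a inputs of the first set and 160.2 ± 6.31 in inputs labelled Upf1 knockout. The second set gave 45.2 ± 2.66 and 119 ± 1.50, and the log2 fold change was 1.45 ± 0.03. Snhg12, which carries 4 snoRNAs, went from 60.8 ± 3.89 to 142 ± 9.59 CPM and from 45.7 ± 2.32 to 139.9 ± 2.98, a log2 fold change of 1.42 ± 0.033. Snhg1, the U22 host gene in which introns rather than exons were first seen to be the conserved part, was at 105 ± 3.90 and 246 ± 13.7 CPM in the first set. It was at 92.7 ± 1.40 and 204 ± 2.65 in the second, a log2 fold change of 1.19 ± 0.027. No library labelled Upf1 knockout fell among the HA-Tnrc6a libraries of its set for these 3 hosts.

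Gas5, the most abundant host and a transcript first found in growth-arrested cells, changed least among the 8. It was at 426, 410.0 and 411 CPM in HA-Tnrc6a inputs and 696, 693 and 638 in those labelled Upf1 knockout in the first set. The second set gave 263, 258 and 253 against 459, 469 and 494. Its groups did not overlap, and its log2 fold change was 0.79 ± 0.024. Snhg8, the host of Snora24, went from 46.5 ± 2.31 to 83.7 ± 3.26 CPM and from 23.4 ± 2.15 to 49.3 ± 3.09, a log2 fold change of 0.96 ± 0.04.

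Snhg3, the host of the U17 snoRNAs Snora73a and Snora73b that act in processing of the small ribosomal subunit RNA, was the exception. Its HA-Tnrc6a inputs held 51.1, 47.7 and 51.4 CPM in the first set, and those labelled Upf1 knockout 53.8, 56.0 and 49.6, so the groups overlapped. In the second set the values were 37.3, 39.4 and 36.3 against 30.0, 31.5 and 33.1, with every library labelled Upf1 knockout below the controls. The log2 fold change was 0.076 ± 0.056 in the first set and -0.24 ± 0.053 in the second, and -0.082 ± 0.039 over both. With RLE size factors it was -0.092, and there and in the second set alone Snhg3 counted as lower by the rule used for all genes.

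**Figure D1:**
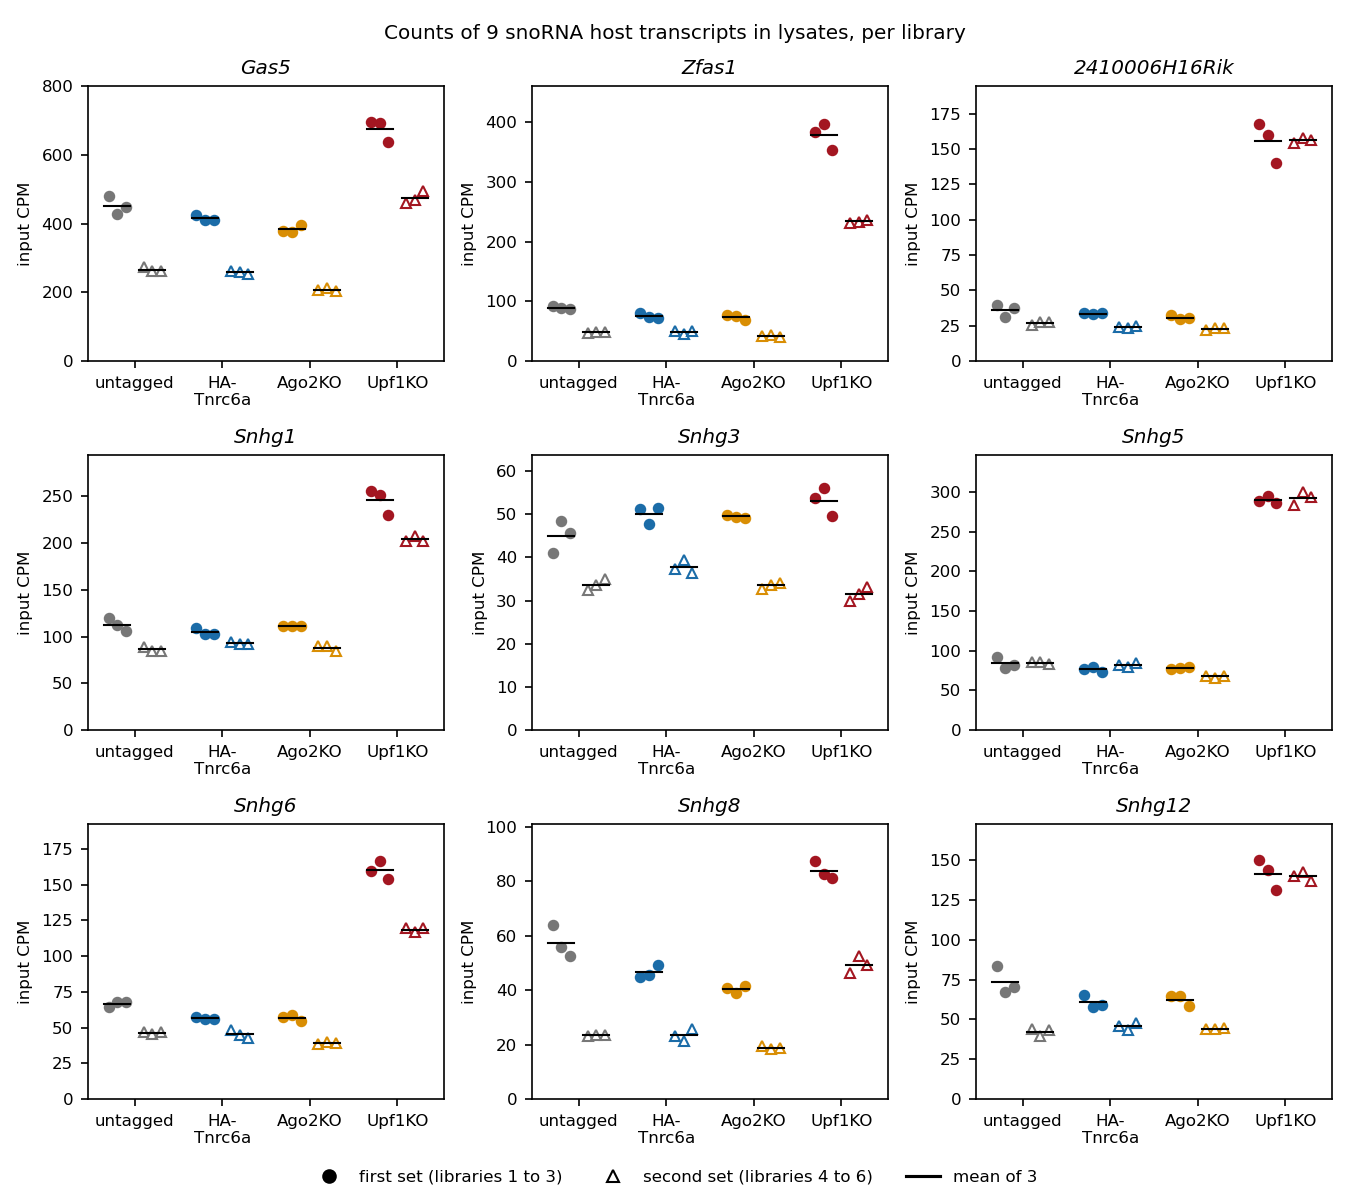
CPM (y axis, from 0, TMM-scaled) of each host in every input library, by genotype (x axis); filled circles are the first set, open triangles the second, and lines the mean of 3 libraries. The libraries labelled Upf1KO lie above all others of their set in 8 panels, and in the Snhg3 panel their range overlaps that of the HA-Tnrc6a libraries in the first set and lies below it in the second. How many of all genes separate in this way was not counted, and the hosts may have been chosen by this comparison.

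The size of the difference varied between the sets for 5 of the 9 hosts, against 11.6% of all genes tested for that difference. It was larger in the second set for 2410006H16Rik, at 2.21 ± 0.05 and 2.70 ± 0.048. Snhg12 had 1.21 ± 0.047 and 1.63 ± 0.045, and its CPM in libraries labelled Upf1 knockout was nearly equal in the sets while that of its controls was lower in the second. Gas5 had 0.69 ± 0.035 and 0.89 ± 0.035, and Snhg8 0.84 ± 0.056 and 1.09 ± 0.056. Snhg3 differed in the other direction, as given above. For Zfas1, Snhg1, Snhg5 and Snhg6 a difference between sets was not called, and their log2 fold changes in the sets were at most 0.09 apart. The sets differ in depth and their libraries are separate, and their part in these differences was not tested.

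**Figure D2:**
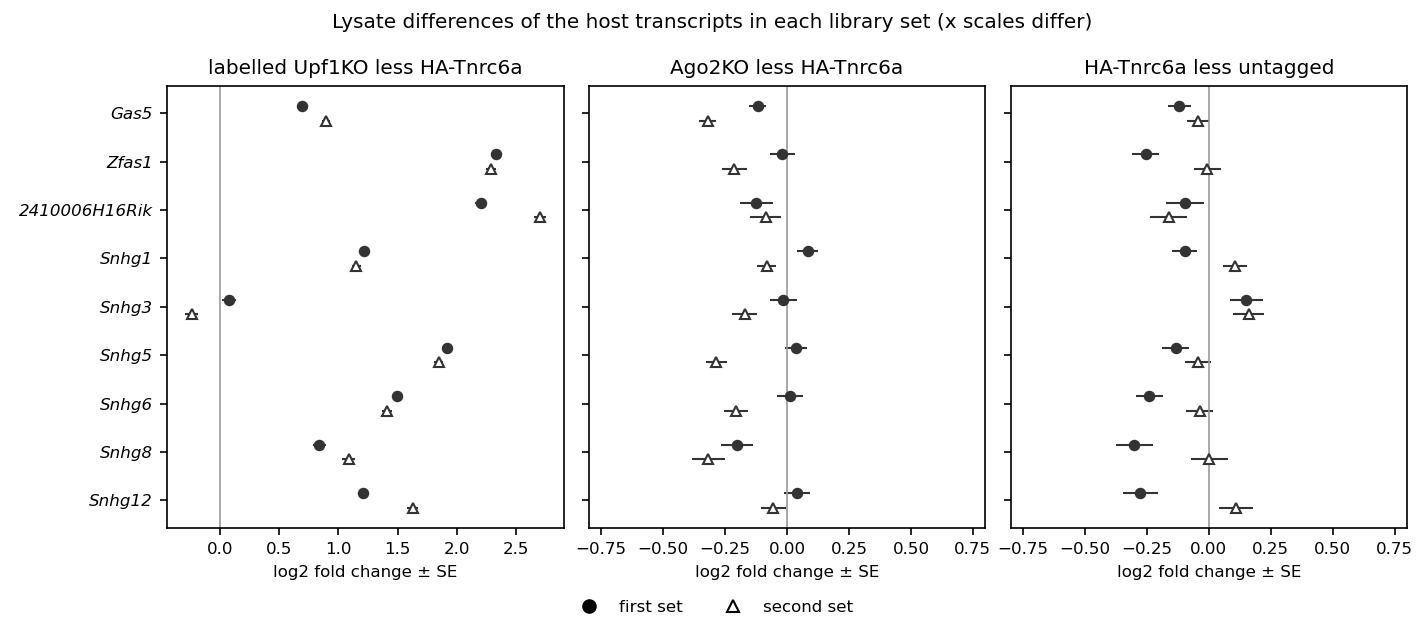
Log2 fold change with its SE (x axis) of each host (y axis) in 3 lysate comparisons, first set as filled circles and second set as open triangles, with a wider x scale in the left panel. In the left panel 8 hosts lie between 0.69 and 2.70, and in the other panels all lie between -0.32 and 0.16.

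The snoRNA genes inside these hosts have rows of their own for 26 of the 32 that RefSeq places there, and none was called higher where the hosts were. In lysates labelled Upf1 knockout none of the 26 was called higher, 4 were called lower and 22 were not called. Among all genes tested 29.5% were called higher and 29.0% lower. Their median log2 fold change was -0.30, and 1 of the 26 was above 0. The 4 called lower were Snord22 in Snhg1 at -0.51 ± 0.11, Gm23212 in Gas5 at -0.38 ± 0.12, Gm22357 in Gas5 at -0.31 ± 0.12 and Snora73b in Snhg3 at -0.24 ± 0.091. These rows were thin, with a median between 6.5 and 140.0 counts per input library. Reads in such a row can come from the processed snoRNA or from the unspliced intron, and these cannot be told apart in the counts.

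The ratio of snoRNA to host counts was lower in the lysates labelled Upf1 knockout for each of the 8 hosts with such rows, in both sets. The host count is the divisor, so a higher host lowers the ratio even where the snoRNA rows stay level. The host rise may come from how the list was chosen, so the ratio may only restate it and is a description. The 2 rows inside Zfas1 summed to 3.12 ± 0.238 CPM (SD, n = 3) in HA-Tnrc6a inputs and 3.46 ± 0.801 in those labelled Upf1 knockout in the first set. Relative to the Zfas1 row this was 4.18% and 0.911%. For Snhg1 the 8 rows came to 10.5% of the host count and 3.58% in the first set, and to 10.8% and 3.42% in the second. The 8 rows inside Gas5 came to 5.56% and 2.87%. Snhg3 had the largest share, 20.7% and 18.0% in the first set and 27.6% and 26.0% in the second. The Snhg3 shares of single libraries overlapped between the genotypes in each set. When the counts of these rows were taken off the host counts, the log2 fold change was 1.30 for Snhg1, 2.37 for Zfas1 and -0.041 for Snhg3. Snhg5 has no snoRNA row in the table and was not touched by this.

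**Figure D3:**
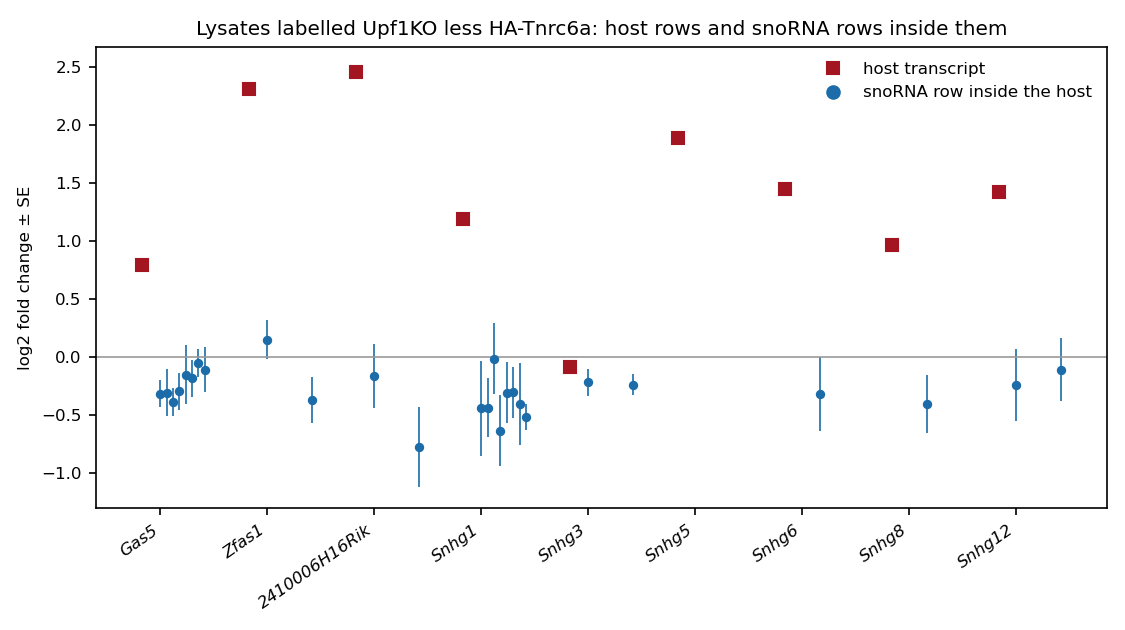
Log2 fold change with its SE (y axis) in lysates labelled Upf1KO less HA-Tnrc6a, for each host (x axis, squares) and each snoRNA row inside it (circles). Of the 26 circles 25 lie below 0, while 8 of the 9 squares lie at 0.79 or above.

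Other transcripts that host snoRNAs had medians nearer to 0 in the same lysates, a difference that was not tested. Among all genes tested 29.5% were called higher and 29.0% lower. Of 14 other noncoding hosts 8 were higher, 3 lower and 3 not called, with a median log2 fold change of 0.18. Snhg15 had 1.17 ± 0.032, Epb41l4aos 1.15 ± 0.04 and 1110038B12Rik 0.62 ± 0.03, while Dancr had -0.34 ± 0.069 and Snhg4 -0.20 ± 0.037. In the first set alone 1 of these 14 was lower. Of 37 protein-coding hosts, most of them genes of ribosomal proteins and translation factors, 6 were higher and 28 lower, with a median of -0.20. Eif4a2, a helicase subunit of the cap-binding complex, had 0.93 ± 0.021, whereas its relative Eif4a1 had -0.44 ± 0.02. Rpl10, a protein of the large ribosomal subunit, had -0.42 ± 0.022. With all 48 libraries in 1 fit 2 of the 37 were higher.

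The messages of the nonsense-mediated decay factors, several of which are known to be substrates of the pathway, were mostly higher. Of 10 measured, Upf1 itself included, 9 were called higher and Smg8 lower, at -0.26 ± 0.041, and the median log2 fold change was 0.70. Among all genes tested 29.5% were called higher and 29.0% lower, and the lists were chosen with earlier results of these data known. Smg9, a subunit of the kinase complex that phosphorylates Upf1, had 1.24 ± 0.053, and Smg1, the kinase itself, 0.80 ± 0.061. Smg5, which helps to return Upf1 to its unphosphorylated state, had 0.75 ± 0.023. The messages of proteins that package snoRNAs mostly had small log2 fold changes. Of 10 such genes, of which Nop56, Nop58 and Dkc1 are also among the protein-coding hosts, 2 were higher and 7 lower, with a median of -0.12, between Nop10 at -0.41 ± 0.031 and Gar1 at 0.35 ± 0.053, both subunits of the H/ACA particle. Fbl, the methyltransferase of the C/D particle, had -0.28 ± 0.024. With all 48 libraries in 1 fit 4 of these 10 were lower.

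**Figure D4:**
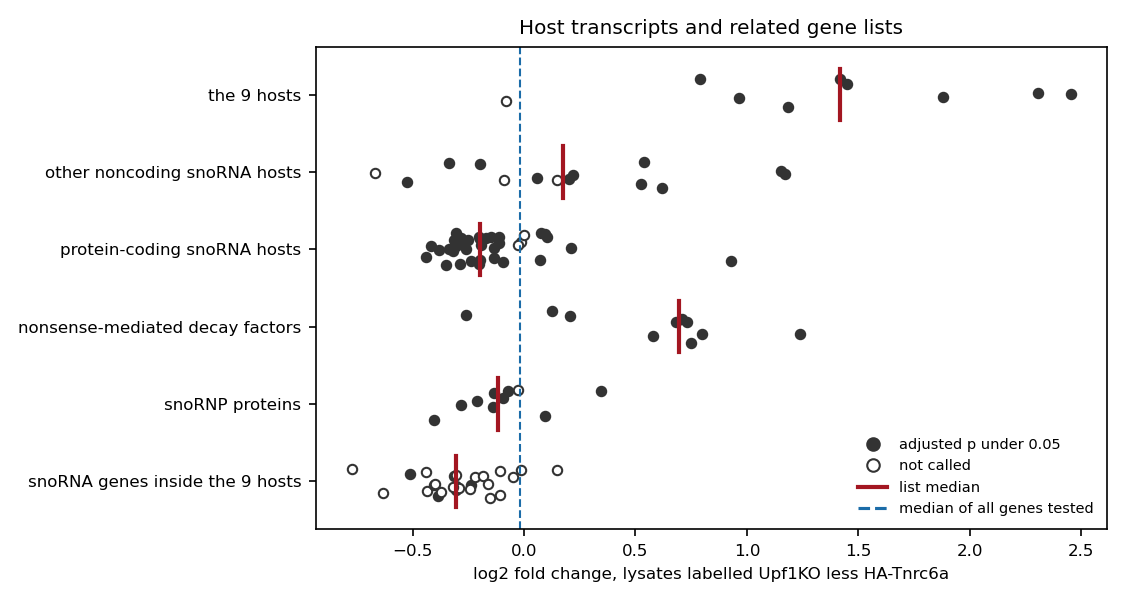
Log2 fold change in lysates labelled Upf1KO less HA-Tnrc6a (x axis) for each gene of 6 lists (y axis, scattered vertically for legibility); filled points have an adjusted p under 0.05, red bars are list medians and the dashed line is the median of all genes tested. The 9 hosts have a median of 1.42 and the snoRNA genes inside them one of -0.30. The 9 hosts may have been chosen by this comparison, so their distance from the other lists may only repeat that choice.

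Without Ago2 the hosts were slightly lower in the lysate or were not called. Of the 9, 5 were called lower than in the same HA-Tnrc6a inputs and none higher, beside 15.2% and 15.7% of the 19641 genes tested. Gas5 was at 379, 375 and 395 CPM in the first set and 205, 213 and 203 in the second, below every HA-Tnrc6a library of its set. Its log2 fold change was -0.22 ± 0.024 (adjusted p = 5.55e-10, edgeR quasi-likelihood test, Benjamini-Hochberg). Snhg8 was lower by a similar amount, -0.26 ± 0.046 (adjusted p = 1.33e-05), at 40.4 ± 1.23 and 18.8 ± 0.520 CPM. Snhg5 had -0.12 ± 0.03 (adjusted p = 0.00127), Zfas1 -0.12 ± 0.036 (adjusted p = 0.0114) and Snhg6 -0.10 ± 0.036 (adjusted p = 0.0353). For these 3 the log2 fold changes in the second set were -0.29, -0.21 and -0.21, and in the first 0.036, -0.019 and 0.011. The Snhg6 call was lost in 7 of 12 fits that left out 1 library, and with DESeq2 (adjusted p = 0.0659). All 3 calls were lost with all 48 libraries in 1 fit (edgeR adjusted p = 0.0971, 0.316 and 0.323). Calls were gained for Snhg3 and 2410006H16Rik with library totals, and for Snhg3 also with a replicate block, in the second set and without snoRNA row counts. A difference between sets was called for Gas5 and Snhg5 and for no other host, beside 5.94% of all genes. Snhg3 (-0.094 ± 0.037, adjusted p = 0.0517), 2410006H16Rik (-0.11 ± 0.045, adjusted p = 0.0711), Snhg12 (-0.0079 ± 0.037) and Snhg1 (-7.5e-05 ± 0.029) were not called. In the first set alone 2 hosts were called, beside 3382 of 17985 genes in either direction. The number was 3 without HA-Tnrc6a input library 1 or without Ago2 knockout input library 3. Of the 26 snoRNA rows none was called, with a median of -0.095.

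Set directly against Ago2 knockout lysates, the lysates labelled Upf1 knockout held more of the same 8 hosts, beside 30.9% of 19419 genes called higher. These values use the same Upf1 knockout libraries as above and are descriptions. The log2 differences ran from 1.01 ± 0.026 for Gas5 to 2.56 ± 0.037 for 2410006H16Rik, with Snhg5 at 2.00 ± 0.028 and Zfas1 at 2.42 ± 0.031. Snhg3 was at 0.0076 ± 0.04, with 53.1 ± 3.26 CPM against 49.5 ± 0.356 in the first set and 31.5 ± 1.58 against 33.5 ± 0.682 in the second. The sets differed for 5 of the hosts, beside 13.1% of genes.

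Tagging Tnrc6a came with small differences in the hosts. Against untagged lysates Snhg3 was called higher, by 0.16 ± 0.046 on the log2 scale (adjusted p = 0.0178, edgeR quasi-likelihood test), and Snhg6 and Zfas1 lower, at -0.14 ± 0.039 (adjusted p = 0.0136) and -0.13 ± 0.039 (adjusted p = 0.0202). The HA-Tnrc6a inputs are also the control of the comparison that may have chosen the hosts, where low values favour a choice, so these p-values are not independent of it. Across the 19407 genes tested 7.74% were called higher and 7.67% lower. In the first set Zfas1 was at 92.8, 88.1 and 87.8 CPM untagged against 79.9, 73.7 and 71.3 tagged, with no overlap, and in the second set the groups overlapped. Snhg8 (-0.15 ± 0.052, adjusted p = 0.0508) and the other 5 were not called. With RLE size factors, no filter, DESeq2, a replicate block or without snoRNA row counts Snhg8 was called lower. It was also called in the first set alone, at -0.30, and was at 0.00295 in the second. In the second set alone Snhg6 (-0.035) and Zfas1 (-0.0044) were not called, nor was Snhg3 in the first alone (0.16). The difference between sets was called for Snhg12, from -0.28 in the first to 0.11 in the second, beside 3.40% of genes. The count of 3 called hosts rose to 7 without untagged input library 2, fell to 1 without HA-Tnrc6a input library 5 and was 0 with all 48 libraries in 1 fit. Each of the 3 log2 differences was smaller than any of the 8 differences seen in lysates labelled Upf1 knockout.

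Beads recovered the hosts from untagged cells, where no HA tag is present. In these IPs all 9 hosts took a larger share of the reads than in the matching lysates, beside 18.0% of the 19299 genes tested that were called higher. Snhg1 was at 314, 231 and 240.0 CPM in the IPs against 119, 112 and 106 in the inputs of the first set. The second set had 418, 315 and 331 against 89.1, 84.7 and 84.8. Every IP lay above every input, and the log2 ratio of 1.62 ± 0.082 (adjusted p = 2.47e-10, edgeR quasi-likelihood test) was the largest of the 9. It was also the one host whose sets differed, with 1.22 and 2.03, beside 2.86% of genes. Zfas1 had 1.38 ± 0.073 and Gas5 1.34 ± 0.079, Snhg12 1.10 ± 0.082, Snhg3 0.89 ± 0.07 and Snhg6 0.89 ± 0.061. The smallest ratios were those of Snhg5 at 0.54 ± 0.064, Snhg8 at 0.52 ± 0.082 and 2410006H16Rik at 0.39 ± 0.067 (adjusted p = 1.04e-04). The snoRNA rows inside the hosts were enriched too. Of the 26, 25 were higher in the IP, with a median log2 ratio of 1.92 beside 0.89 over the 9 hosts. Scaled by library totals, the share of called genes that were higher was 20.9% rather than 50.3%, and all 9 hosts were still called higher.

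From HA-Tnrc6a cells the beads recovered less of every host, relative to its lysate, than from untagged cells. Recovery here is the log2 ratio of IP to input in one genotype less that in the other, so it describes a share of the IP reads and not an amount bound. All 9 hosts were lower, beside 32.2% of the 19993 genes tested, and their median of -1.20 compared with -0.097 over all genes. Gas5 showed 1.10 ± 0.19 and 1.56 ± 0.27 (log2 IP less input, SD, 3 libraries each) in untagged cells and 0.12 ± 0.13 and -0.032 ± 0.14 in HA-Tnrc6a cells. Its difference was -1.29 ± 0.10 (adjusted p = 2.22e-13, edgeR quasi-likelihood test). Snhg12 had the largest difference, -1.38 ± 0.10 (adjusted p = 3.00e-13), and Snhg5 the smallest, -0.88 ± 0.081 (adjusted p = 1.39e-11). Snhg1 at -1.32 ± 0.11, Snhg3 at -1.22 ± 0.094 and Snhg6 at -1.20 ± 0.087 lay between. In HA-Tnrc6a cells Zfas1 and Snhg1 alone of the 9 stayed above their lysate share in both sets, Zfas1 at 0.29 ± 0.11 and 0.12 ± 0.25. The snoRNA rows behaved alike, 25 of 26 being lower with a median of -1.38. Of 14 other noncoding hosts 10 were lower and Rian higher, at 2.12 ± 0.089, and of 37 protein-coding hosts 32 were lower. Scaling by library totals moved the median of all genes by -0.16 and left all 9 hosts lower.

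Recovery with HA-Tnrc6a was a little lower again without Ago2. Of the 9 hosts 6 were called lower than in HA-Tnrc6a cells and none higher, beside 12.3% of the 19995 genes tested. Their median was -0.28, beside -0.038 over all genes. Other snoRNA hosts were lower to a similar degree. Of 14 other noncoding hosts 7 were lower (median -0.27), and of 37 protein-coding hosts 23 were lower and 1 higher (median -0.24). Of the 26 snoRNA rows 7 were lower, with a median of -0.65. Snhg1 changed most, by -0.47 ± 0.079 (adjusted p = 2.49e-05, edgeR quasi-likelihood test), then Gas5 by -0.40 ± 0.075 (adjusted p = 1.08e-04) and Snhg12 by -0.39 ± 0.076 (adjusted p = 2.03e-04). Snhg3 had -0.34 ± 0.079 (adjusted p = 0.00145), Zfas1 -0.28 ± 0.095 (adjusted p = 0.0339) and Snhg6 -0.23 ± 0.082 (adjusted p = 0.0360). Snhg8 (-0.28 ± 0.11, adjusted p = 0.0592), 2410006H16Rik (-0.12 ± 0.084) and Snhg5 (-0.10 ± 0.06) were not called. In the second set Zfas1 went from 0.12 ± 0.25 to -0.48 ± 0.10, and in the first it was 0.29 ± 0.11 and 0.35 ± 0.24. In the first set alone none of the 9 was called, beside 1623 of 18707 genes in either direction. In the second alone 7 were called, beside 3463 of 19810. A difference between the sets was called for no host, beside 39 of the 19995 genes. With so few called among all genes, this does not show that the sets agree. The Zfas1 and Snhg6 calls were each lost in 13 of 24 fits that left out 1 library, and with all 48 libraries in 1 fit (adjusted p = 0.0637 and 0.0700, edgeR), where 4 hosts were called. Snhg6 was also lost with library totals (adjusted p = 0.0600, edgeR). Snhg8 was called in 5 of the 24 fits, at -0.40 without Ago2 knockout IP library 6. It was also called with RLE size factors, DESeq2, a replicate block, in the second set alone (-0.51) and for IPs without inputs. Its Ago2 knockout IPs of the second set held 5.87, 6.59 and 9.40 CPM. Leaving out 1 library gave between 4 and 7 called hosts.

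In cells labelled Upf1 knockout the hosts made up a smaller part of the IP relative to their raised lysate level. This comparison subtracts the same inputs as the lysate comparison, so hosts chosen for a high lysate ratio are pushed toward lower recovery, and it is a description. By the rule used for all genes 7 of the 9 hosts count as lower, beside 1.57% of the 19966 genes tested, and nothing is read from that count. The log2 differences of these 7 ran from -0.33 ± 0.091 for 2410006H16Rik to -0.70 ± 0.10 for Snhg12. Snhg8 at -0.21 ± 0.11 and Snhg3 at -0.072 ± 0.10 were not called. The IPs were also compared with each other without inputs. The HA-Tnrc6a IPs of the first set held 95.6, 93.1 and 86.3 CPM of Zfas1, and those labelled Upf1 knockout 342, 328 and 274. In the second set the values were 63.4, 50.1 and 45.7 against 188, 162 and 146. The log2 difference between the IPs was 1.72 for Zfas1, against 2.31 between the lysates. For 2410006H16Rik these were 2.09 and 2.45, and for Gas5 0.35 and 0.79. For each of these 3 hosts the difference between IPs was the smaller of the pair, a comparison that was not tested on its own. The lowest Gas5 value among the first-set IPs labelled Upf1 knockout lay below the highest HA-Tnrc6a IP, while for Zfas1 the groups were apart. Genes called in this comparison were 65.1% higher with TMM, 52.8% with RLE size factors and 22.4% with library totals. The recovery comparisons share the HA-Tnrc6a libraries, so their values are not independent of one another.

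**Figure D5:**
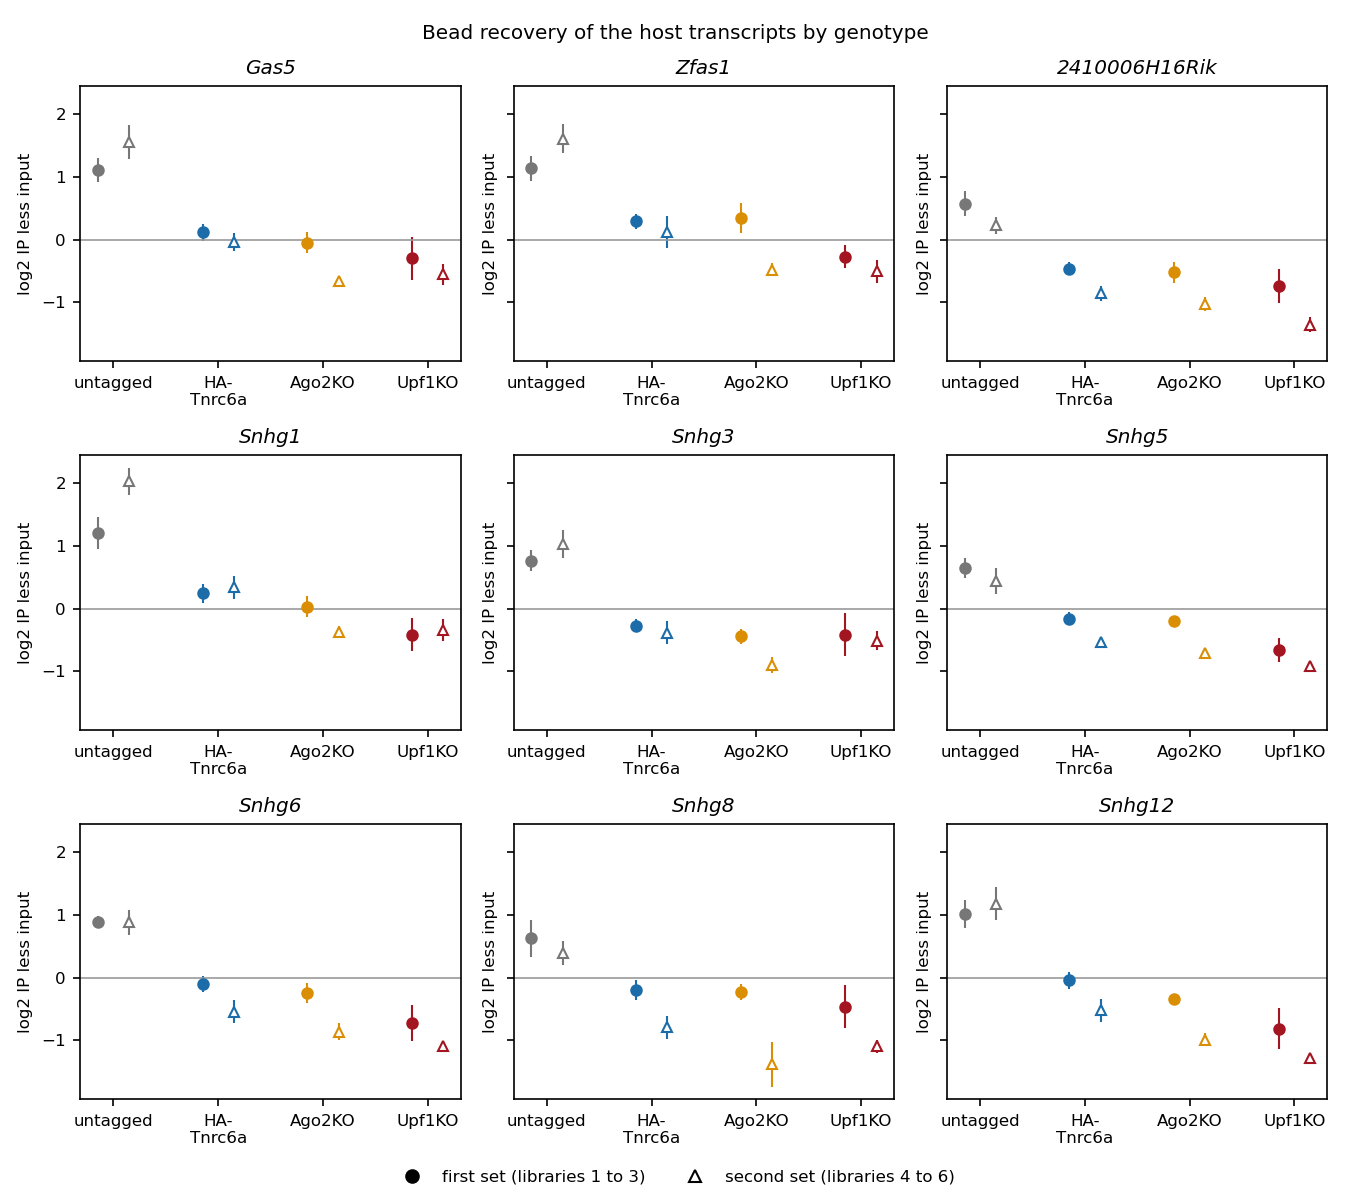
Log2 IP less input (y axis, mean log2 CPM of 3 IPs less that of 3 inputs; bars are the SD of the difference) of each host by genotype (x axis), first set as filled circles and second set as open triangles. In untagged cells every value lies above 0, from 0.23 to 2.03, and in the libraries labelled Upf1KO every value lies below 0.

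Across the 16 means of genotype, fraction and set most hosts varied together and Snhg3 less so. Pearson's r between 2 hosts ran from 0.29 to 0.98 over 36 pairs with a median of 0.84. Snhg3 had the lowest, 0.29 with Snhg5, 0.31 with 2410006H16Rik and 0.44 with Zfas1, and over the 8 input means r ran from 0.0057 for Snhg3 with Snhg5 to 1.00, with a median of 0.89. Each host's r with the mean of the 9 centred profiles, of which it is itself a part, was between 0.65 for Snhg3 and 0.99 for Snhg6. The genes outside the list with the highest r to that mean were Gm44597 (0.97), Ing4 (0.97), Arhgef25 (0.96), Ncbp2 (0.96) and Nudt13 (0.95). In lysates labelled Upf1 knockout these 5 had log2 fold changes of 0.87, 0.94, 1.20, 0.46 and 0.77. All points share the libraries and their scaling, so these correlations are descriptions over 16 means with no test.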

How the data were processed

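RNA counts per gene were analysed in 48 libraries of mouse embryonic stem cells, 24 inputs and 24 HA bead IPs. The authors deposited whole-number read counts per gene with no normalization, in 48 count columns, and did not pool replicates. Reads were made with bcl2fastq 2.20 and aligned with STAR 2.7.3a to GRCm38 (mm10), per the submitters' processing notes; the counter, its strand setting and the annotation are not given in the sources used here. Libraries came from a stranded total RNA kit, per the labels' protocols. Without the strand setting, reads of overlapping genes cannot be assigned with certainty: among the overlaps, Gas5 overlaps Zbtb37, Zfas1 overlaps Znfx1, and Snhg6 overlaps Mcmdc2. A further 48 per-library columns were not used. The table names 16427 genes, and Ensembl gene IDs matched to a reference list of gene names gave 3725 more symbols. The smallest per-gene maximum was 11 counts.

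Each comparison was fitted with edgeR 4.0.16 (quasi-likelihood, robust, two-sided) on the deposited counts of its own groups, after filterByExpr (minimum count 10) and TMM scaling. There was 1 coefficient per group and set, and contrasts were averaged over both sets. P-values were adjusted by Benjamini-Hochberg over all genes tested, with a threshold of 0.05. SE is the absolute log2 fold change over the square root of F. The script was tested on simulated data. P-values measure the spread between libraries of the same group and set. They do not cover spread between clones, whose number is not given, or between sets. Counting intervals would not cover reads that are PCR copies. Depth ran from 11471544 to 73845953 counts per library.

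Members and gene lists were chosen with earlier results of these data known. The genes named are all members, Upf1, Ago2 and Tnrc6a as the check of the labels, and up to 3 per list and direction by size among those called, of equal sign in both sets and with an average log2 CPM of at least 3. Named by likeness are the 5 genes with the highest Pearson r. snoRNA rows were matched by RefSeq coordinates inside a member; their strand was not checked, since the table used here holds none. Marker and group checks used TMM-scaled CPM with all libraries. Replicate libraries differed by more than sampling noise in every group and none was merged. Alternatives were RLE size factors, library totals, no filter, DESeq2 1.42.0, the library number as a block, all libraries in 1 fit, each set alone, IPs without inputs and each library left out. Member counts less the snoRNA row counts were added after seeing the data.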

Additional observations from a re-analysis of the deposited data

Results flagged for a closer look

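The 2 library sets differed in 14 of the 72 member results by an interaction term in the edgeR fit, adjusted by Benjamini-Hochberg over all genes. Among all genes, 11.6% differed so in lysates labelled Upf1 knockout against HA-Tnrc6a and 13.1% against Ago2 knockout. The share was 5.94% for Ago2 knockout against HA-Tnrc6a, 3.40% for HA-Tnrc6a against untagged and 2.86% for the bead background. In the recovery comparisons 73 of 19993 genes (HA-Tnrc6a), 39 of 19995 (Ago2 knockout) and 23 of 19966 (labelled Upf1 knockout) differed. Values are the log2 difference of the second set less that of the first. In lysates labelled Upf1 knockout against HA-Tnrc6a they were 0.49 for 2410006H16Rik, 0.42 for Snhg12, 0.25 for Snhg8, 0.20 for Gas5 and -0.32 for Snhg3. Against Ago2 knockout lysates they were 0.53 for Snhg12, 0.47 for 2410006H16Rik, 0.42 for Gas5, 0.38 for Snhg8 and 0.27 for Snhg5. Ago2 knockout against HA-Tnrc6a gave -0.32 (adjusted p = 4.06e-04) for Snhg5 and -0.20 (adjusted p = 0.00557) for Gas5. HA-Tnrc6a against untagged gave 0.39 (adjusted p = 0.0255) for Snhg12, and the bead background gave 0.81 (adjusted p = 0.0101) for Snhg1. No p is given for the lysates labelled Upf1 knockout, since that comparison may have been used to choose the hosts. Every comparison with a knockout draws on the same libraries as another, so these 14 are not independent. With all 48 libraries in 1 fit the number called was 5, and the share of all genes was not counted there. The level of most hosts was lower in the second set: in HA-Tnrc6a inputs Snhg8 was at 0.502 times its first-set mean. What differed between the sets was not tested.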

How the results depend on the processing

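Apart from fits that leave out a library, 675 alternative values were computed for the 72 member results. Direction and side of the threshold held in 605, a call was lost in 22 and gained in 22, and the sign changed in 26. The counts of called hosts stayed at 8 or 9 for lysates labelled Upf1 knockout under every alternative, and at 9 for the bead background and for recovery with HA-Tnrc6a over untagged. Against HA-Tnrc6a lysates the ninth was Snhg3, called lower with RLE size factors, in the second set alone and in 4 of 12 fits that left out 1 library. Against Ago2 knockout lysates Snhg3 was called higher without snoRNA row counts, at 0.11. With all 48 libraries in 1 fit the called hosts numbered 2 for Ago2 knockout lysates and 0 for tagged against untagged lysates, and the differences between sets numbered 5. In the first set alone 2 hosts were called in Ago2 knockout lysates, beside 3382 of 17985 genes. In recovery without Ago2 it was 0, beside 1623 of 18707. With library totals the counts were 7 for Ago2 knockout lysates, 2 for tagged lysates and 20 for set differences. Leaving out 1 library in turn gave 3 to 6 for Ago2 knockout lysates, 1 to 7 for tagged lysates, 4 to 7 for recovery without Ago2, and 13 to 16 set differences. The share of all genes with a set difference was not counted in these alternative fits. The cause of these changes was not tested, but fits on 1 set hold fewer samples.

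Same-numbered libraries had a mean correlation of 0.068 between their deviations, from -0.29 to 0.67 over 168 pairs, against -0.034 for different numbers. Inputs and IPs of one genotype and number, which the recovery comparisons combine, had a mean of 0.10, from -0.061 to 0.51 over 24 pairs. Not every pair was above 0.1, and the numbers were not taken to pair samples. This does not exclude that an input and an IP came from the same dish, and the recovery p-values take no account of it. The replicate block has terms for library number that all groups share, so it does not pair an input with its own IP. With a replicate block the called hosts numbered 8 in lysates labelled Upf1 knockout against either control, 6 in Ago2 knockout lysates, 4 in tagged lysates, 9 in the bead background, and 9, 7 and 7 in the 3 recovery comparisons. Set differences under the replicate block numbered 21, with no share of all genes counted beside them. It did not change the sign of any member result.

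Signs that changed were mostly of values near 0. Snhg1 in Ago2 knockout lysates was 0.0037 with RLE size factors, 0.0036 with DESeq2, 0.0015 with all 48 libraries, 0.083 in the first set and 0.011 without snoRNA row counts, and -0.0084 to 0.017 with 1 library left out. In the first set alone the others were 0.041 for Snhg12, 0.036 for Snhg5 and 0.011 for Snhg6, and Snhg12 ran from -0.026 to 0.021 with 1 library left out. In tagged against untagged lysates Snhg1 was -0.00018 with RLE size factors, -6.7e-05 with DESeq2, -0.095 in the first set and -0.017 to 0.023 with 1 library left out. In the second set Snhg12 was 0.11 and Snhg8 0.00295. Snhg3 in lysates labelled Upf1 knockout against Ago2 knockout was -0.0014 with RLE size factors, -0.0014 with DESeq2, -0.066 in the second set and -0.011 to 0.032 with 1 library left out. Against HA-Tnrc6a it was 0.078 in the first set. Zfas1 recovery without Ago2 was 0.046 in the first set. Bead recovery of Upf3b was -0.022 and of Upf1 -0.086 with library totals. Of the genes that check the labels, Tnrc6a was 0.11 in the bead background, -0.18 in recovery without Ago2 and 0.036 in recovery labelled Upf1 knockout in the second set, and 0.015 with library totals and 0.0071 in the first set in lysates labelled Upf1 knockout. Upf1 was 0.086 in Ago2 knockout lysates of the first set, and in recovery without Ago2 0.036 in the second set and 0.0037 for IPs without inputs. Ago2 was 0.029 in tagged lysates of the first set. With 1 library left out, Tnrc6a in the bead background ran from -0.057 to 0.054, Upf1 in Ago2 knockout lysates from -0.023 to 0.027 and Upf1 in recovery without Ago2 from -0.073 to 0.021.

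Comparing IPs labelled Upf1 knockout with HA-Tnrc6a IPs, without inputs, no longer takes off the lysate difference. The sign changed for 8 hosts and not for Snhg3. The values were 2.09 for 2410006H16Rik, 1.72 for Zfas1, 1.45 for Snhg5, 0.88 for Snhg6, 0.71 for Snhg8, 0.68 for Snhg12, 0.53 for Snhg1 and 0.35 for Gas5. Among other genes the sign changed for Ago2 (0.34), Eif4a1 (-0.22) and Wdr43 (-0.18). In those lysates Eif4a1 and Wdr43 were lower, at -0.44 and -0.38. Depth limits the snoRNA rows, some of which held 2 counts in a library.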
